A study of Homo sapiens with 12 samples.

Results

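The genes described here build and run the gene expression machinery of mitochondria. They were chosen by name from the sgRNA count table of a pooled CRISPR knockout screen, as every gene whose symbol is MRPL or MRPS followed by a number and at most 1 letter from A to C, together with TEFM, TFAM, TFB2M, POLRMT, POLG, TUFM, TSFM, GFM1 and MTIF2. The rule found 85 genes with 508 sgRNAs, out of 20915 gene names with 121411 sgRNAs. Of these, 47 genes with MRPL symbols are grouped as large-subunit genes of the mitochondrial ribosome. Another 29 with MRPS symbols are grouped as small-subunit genes. The symbol alone set this grouping, and the place of each protein was not checked. Of the other genes, 4 act in mitochondrial transcription, 1 is the mitochondrial DNA polymerase and 4 are translation factors. Each of 84 genes had 6 sgRNAs, 3 in sub-library A and 3 in sub-library B of the pool, and MRPS9 had 4.

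Mitochondria carry a small genome that encodes core subunits of the respiratory chain and the ATP synthase. POLRMT, the mitochondrial RNA polymerase, transcribes it with TFAM, which packages the DNA and bends promoters, TFB2M, which opens them, and TEFM, the elongation factor. POLG is the catalytic subunit of the replicative polymerase. The messages are read by the mitochondrial ribosome, all of whose proteins are nuclear genes made in the cytosol and imported. MTIF2 starts translation, TUFM delivers aminoacyl-tRNA, TSFM recharges TUFM, and GFM1 moves the ribosome along the message.

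The screen used N87 and OE19, established HER2-amplified cell lines that the labels describe as gastric cancer, transduced with the GeCKO V2 lentiviral library, which carries Cas9 and 1 sgRNA per virus. Lapatinib cells were treated for 14 days with lapatinib, a kinase inhibitor of EGFR and HER2, at 1 µM for OE19 and 0.5 µM for N87, vehicle cells received DMSO over the same 14 days, and baseline cells were harvested after 7 days of puromycin selection, before treatment. Each of the 6 conditions had 2 libraries from separate infections, giving 12 libraries. The cells were polyclonal pools, and a lower normalized sgRNA count means that a smaller share of the pool carried that sgRNA. Numbers of cells were not measured.

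Libraries held 13105805 to 33743599 counts, and the median count of a member sgRNA was 55.5 to 229. Members took 0.356% of counts in OE19 lapatinib libraries, 0.323% in OE19 vehicle libraries and 0.394% in OE19 baseline libraries. In N87 they took 0.316% under lapatinib, 0.328% under vehicle and 0.38% at baseline. Member sgRNAs at a count of 0 were 5 and 3 in the OE19 lapatinib libraries and 11 and 4 in the N87 lapatinib libraries, against at most 1 in any other library. Counts are PCR reads without molecular identifiers, and with 2 libraries a condition an exact permutation test of a single value cannot go below 0.333, so the tests below come from models fitted across all sgRNAs.

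Growth without drug was compared first, as the change in sgRNA shares of the pool from baseline to 14 days of vehicle, before lapatinib is considered. In OE19 cells sgRNAs against the mitochondrial ribosome and its partner genes were lower after vehicle than at baseline. The median log2 fold change over 501 tested member sgRNAs was -0.33, with quartiles of -0.71 and 0.01, against 0.01 over all sgRNAs and 0.19 over control guides that target no gene. Of 85 member genes, 77 had a negative median over their sgRNAs, or 90.6%, against 46.4% of all genes. Summed normalized counts were lower in both vehicle libraries than in both baseline libraries for 65 members, or 76.5%, against 21.5% of all genes tested.

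In N87 cells the shift was of the same sign. The median over 504 member sgRNAs was -0.24, with quartiles of -0.44 and -0.04, against 0.02 over all sgRNAs and 0.09 over control guides. Negative gene medians were found for 78 of 85 members, or 91.8%, against 42.8% of all genes. Summed counts were lower without overlap for 67 members, or 78.8%, against 17.8% of all genes tested. In sub-libraries A and B the member median was -0.35 and -0.30 in OE19, and -0.28 and -0.18 in N87. Relative to all sgRNAs, the members' median stayed between -0.41 and -0.29 in OE19 and between -0.33 and -0.17 in N87 whichever library was left out.

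**Figure D1:**
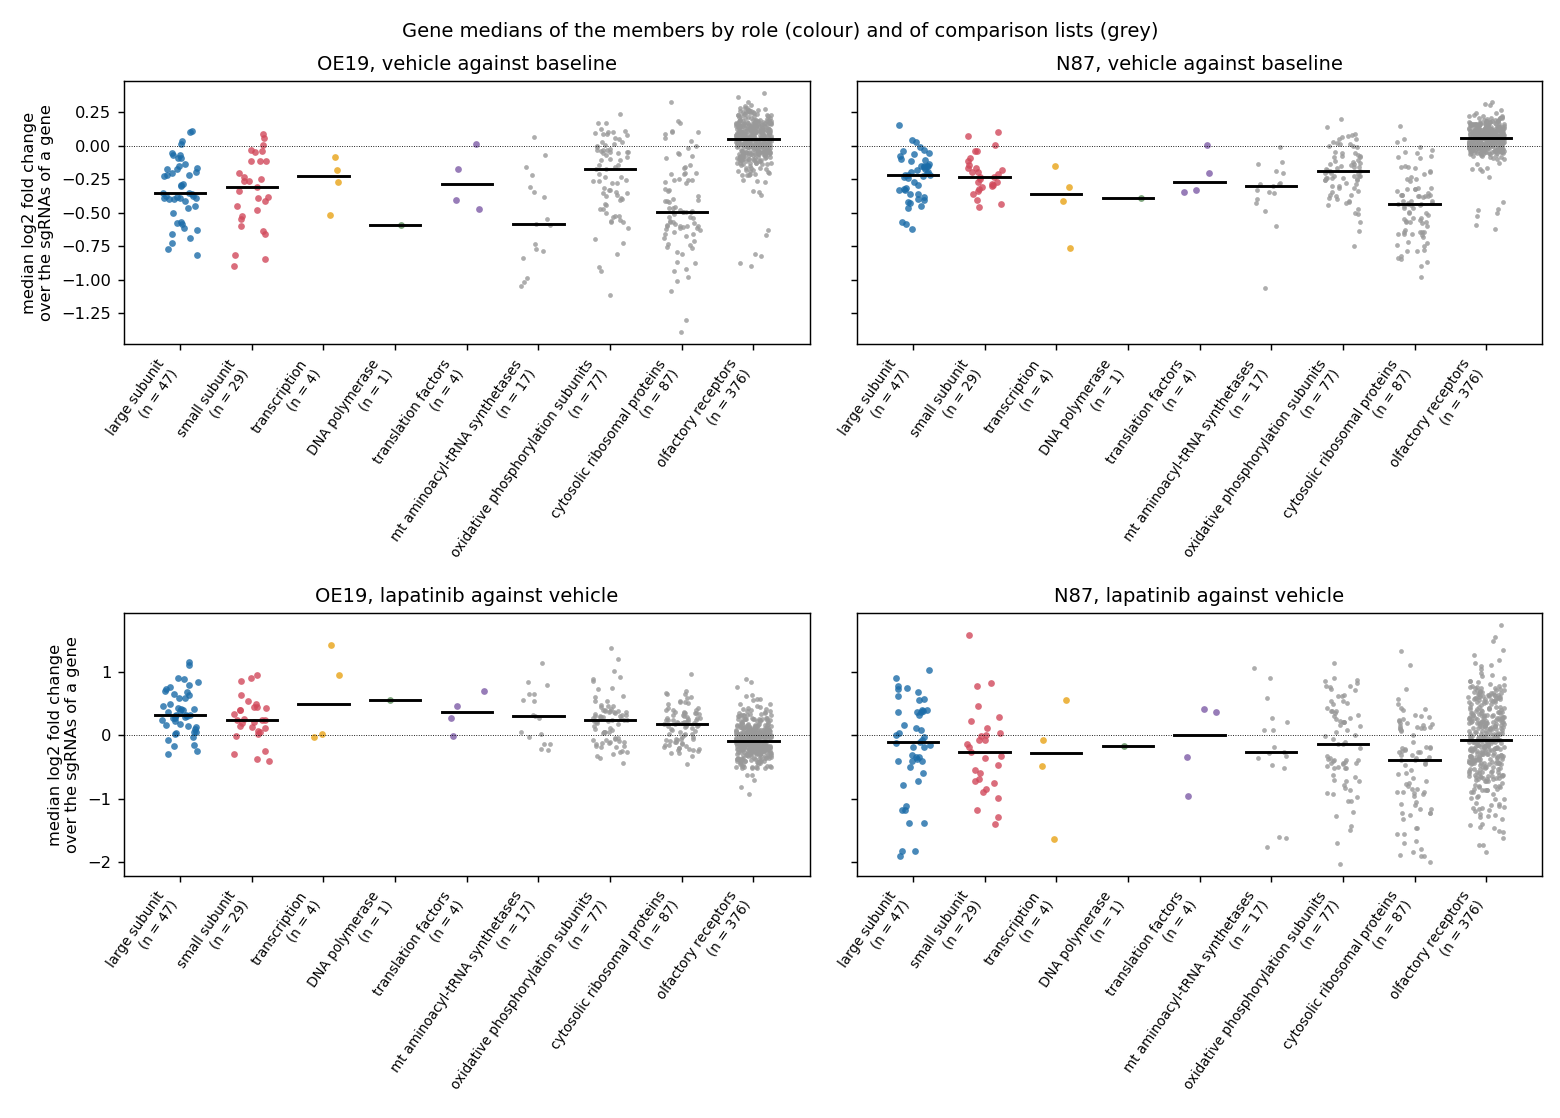
Each point is the median log2 fold change over the sgRNAs of a gene (y axis), by role for the 85 members (colour) and for comparison lists (grey), with a black bar at the median of each group; the upper panels show vehicle against baseline, the lower panels lapatinib against vehicle. After drug-free growth most members of every role with more than 1 gene lie below 0 in both lines, as cytosolic ribosomal proteins do, while most olfactory receptors lie above 0.

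Gene medians were negative in OE19 and in N87 for 73 of 85 members, or 85.9%, against 25.7% of all genes. Across the 85 members the medians of the 2 lines had a Pearson r of 0.47 and a Spearman rho of 0.50, against 0.58 and 0.35 across 20915 gene names, where the points share sgRNA design and library composition. MRPS27 and MRPS33, small-subunit proteins, and MTIF2 had medians just above 0 in both lines, the highest of these 0.07, and the sign for MTIF2 changed with total counts, control guide factors or gene sums in both lines.

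**Figure D2:**
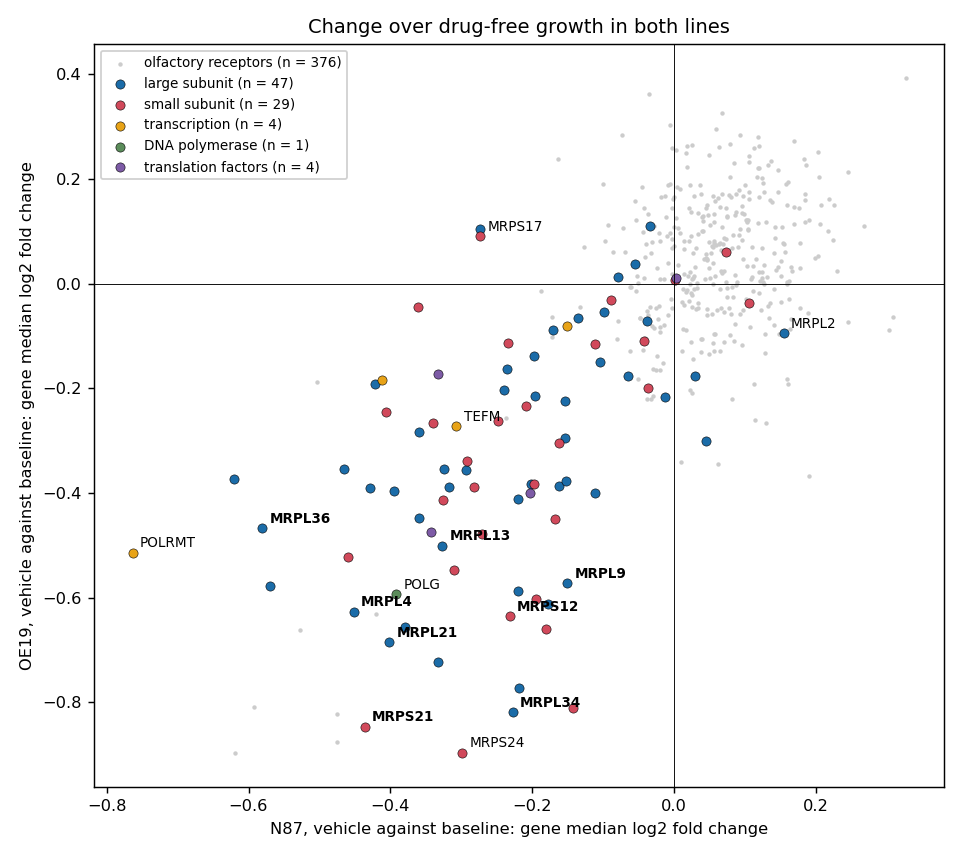
Gene median log2 fold change of vehicle against baseline in OE19 (y axis) and N87 (x axis); coloured points are the 85 members by role, grey points are 376 olfactory receptors, and bold names mark members past the gene test in either line. Members spread from the origin into the lower left quadrant, with POLRMT lowest in N87 at -0.76 and MRPS24 lowest in OE19 at -0.90.

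The gene test ranked all sgRNAs by their one-sided p from edgeR's quasi-likelihood fit and asked whether a gene's sgRNAs were concentrated at 1 end (robust rank aggregation, Benjamini-Hochberg adjustment over all genes, threshold 0.05). In OE19 7 members were depleted, or 8.24% of 85, against 1.53% of all 20894 genes tested. They were 5 large-subunit genes, MRPL4, MRPL9, MRPL13, MRPL21 and MRPL34, and 2 small-subunit genes, MRPS12 and MRPS21. At an unadjusted p under 0.05, 40 members were depleted, or 47.1%, against 6.99% of all genes.

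MRPS21, a small-subunit protein, had summed normalized counts of 553.0 and 579.9 in OE19 vehicle libraries, against 835.6 and 899.6 in OE19 baseline libraries. The groups did not overlap, and all 6 sgRNAs were lower, with a median log2 fold change of -0.85 ± 0.30 (SD over sgRNAs, as for all gene values below; edgeR with rank aggregation, adjusted p = 0.0203). MRPS21 was also lower in N87, at 656.4 and 542.3 in vehicle libraries, against 806.1 and 825.5 in baseline libraries, with a median of -0.44 ± 0.34 that did not pass the test (adjusted p = 0.0767).

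MRPL34, a large-subunit protein, had summed counts of 541.9 and 636.7 in OE19 vehicle libraries, against 861.7 and 1011 in OE19 baseline libraries. Its median was -0.82 ± 0.79 with all 6 sgRNAs lower (adjusted p = 0.0285). The spread came mostly from the sgRNA numbered 6 within the gene, which had 6.636 and 19.29 normalized counts in vehicle libraries, against 66.15 and 74.55 in baseline libraries.

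MRPL21 fell to 781.6 and 843.2 in OE19 vehicle libraries, against 1237 and 1193 in OE19 baseline libraries, with a median of -0.68 ± 0.49 (adjusted p = 0.0142). MRPL4 had the closest replicates, 552.2 and 547.0 in vehicle libraries, against 887.8 and 852.7 in baseline libraries. All 6 of its sgRNAs were lower and the median was -0.63 ± 0.52 (adjusted p = 0.0232). MRPL21 and MRPL4 encode large-subunit proteins.

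MRPS12, the small-subunit protein at the decoding centre, had 521.3 and 485.7 in OE19 vehicle libraries, against 779.9 and 767.3 in OE19 baseline libraries, with a median of -0.64 ± 0.65 (adjusted p = 0.0205). MRPL9 had 690.1 and 732.0 in vehicle libraries, against 1074 and 1019 in baseline libraries, and a median of -0.57 ± 0.69 (adjusted p = 0.0264). MRPL13 had the widest spread over sgRNAs, with 2 of 6 called lower singly, 4 of 6 lower and a median of -0.50 ± 0.84 (adjusted p = 0.0270). Its sums were 831.7 and 811.5 in vehicle libraries, against 1118 and 1074 in baseline libraries. For all 7 genes the vehicle sums lay below the baseline sums in both lines. In OE19 this largely follows from their choice, as they were called on these libraries. In N87 the same held for 78.8% of all members, against 17.8% of all genes tested.

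These calls rested on small margins. MRPL4 was not called with DESeq2 (adjusted p = 0.108), nor MRPS21 with edgeR factors from the control guides (0.0651). Without OE19 baseline replicate 2 MRPS21 was lost (0.474). Without OE19 baseline replicate 1 only MRPL21 and MRPL34 passed among the members, without vehicle replicate 1 only MRPL4, MRPL13 and MRPS12, and without vehicle replicate 2 the members called were MRPL17, MRPL21 and POLG. Summing the sgRNAs of each gene before the edgeR test called 35 members depleted in OE19, of 1244 genes.

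In N87 the gene test called 1 member, MRPL36, or 1.18% of 85, against 2.34% of all 20894 genes. MRPL36, a small protein of the large subunit, had 912.8 and 953.6 in N87 vehicle libraries, against 1296 and 1310 in N87 baseline libraries. All 6 sgRNAs were lower, from -0.79 to -0.15, with a median of -0.58 ± 0.29 (adjusted p = 0.00255), and the call held without each library in turn (adjusted p = 0.00135 to 0.0399). In OE19 MRPL36 had 952.6 and 1002 in vehicle libraries, against 1380 and 1325 in baseline libraries, with a median of -0.47 ± 0.39 (adjusted p = 0.102). Leaving out a baseline library gave 2 or 5 depleted members in N87 (replicate 1 or 2), and leaving out a vehicle library gave 5 or 2. At an unadjusted p under 0.05, 34 of 85 members were depleted in N87, against 7.07% of all genes, and 23 members were depleted at that level in both lines, which is 57.5% of the OE19 members and 67.6% of the N87 members, against 60.03% of the OE19 genes and 59.38% of the N87 genes over all genes (877 shared).

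Single sgRNAs gave the same direction. In OE19 29 of 501 member sgRNAs were lower at an adjusted p under 0.05, or 5.79% against 0.893% of all sgRNAs, and none were higher by edgeR or DESeq2, against 14 higher and 173 lower at an unadjusted p under 0.05. They fell in 25 genes, and MRPL13, MRPL38, MRPL39 and POLG held 2 each. In N87 1 of 504 passed, an sgRNA against the small-subunit gene MRPS22 at -0.93 (edgeR, adjusted p = 0.0483), or 0.198% against 0.0399% of all sgRNAs, and 108 were lower and 2 higher at an unadjusted p under 0.05. The number lower moved with the libraries. It was 13 and 8 in OE19 without baseline replicate 1 and 2, and 114 and 221 without vehicle replicate 1 and 2. In N87 it was 0 and 1 without baseline replicate 1 and 2, and 92 and 14 without vehicle replicate 1 and 2. All tested sgRNAs of a gene were lower for 16 members in OE19, or 18.8% against 4.14% of genes with at least 4 tested sgRNAs, and for 21 members in N87, or 24.7% against 4.92%.

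**Figure D3:**
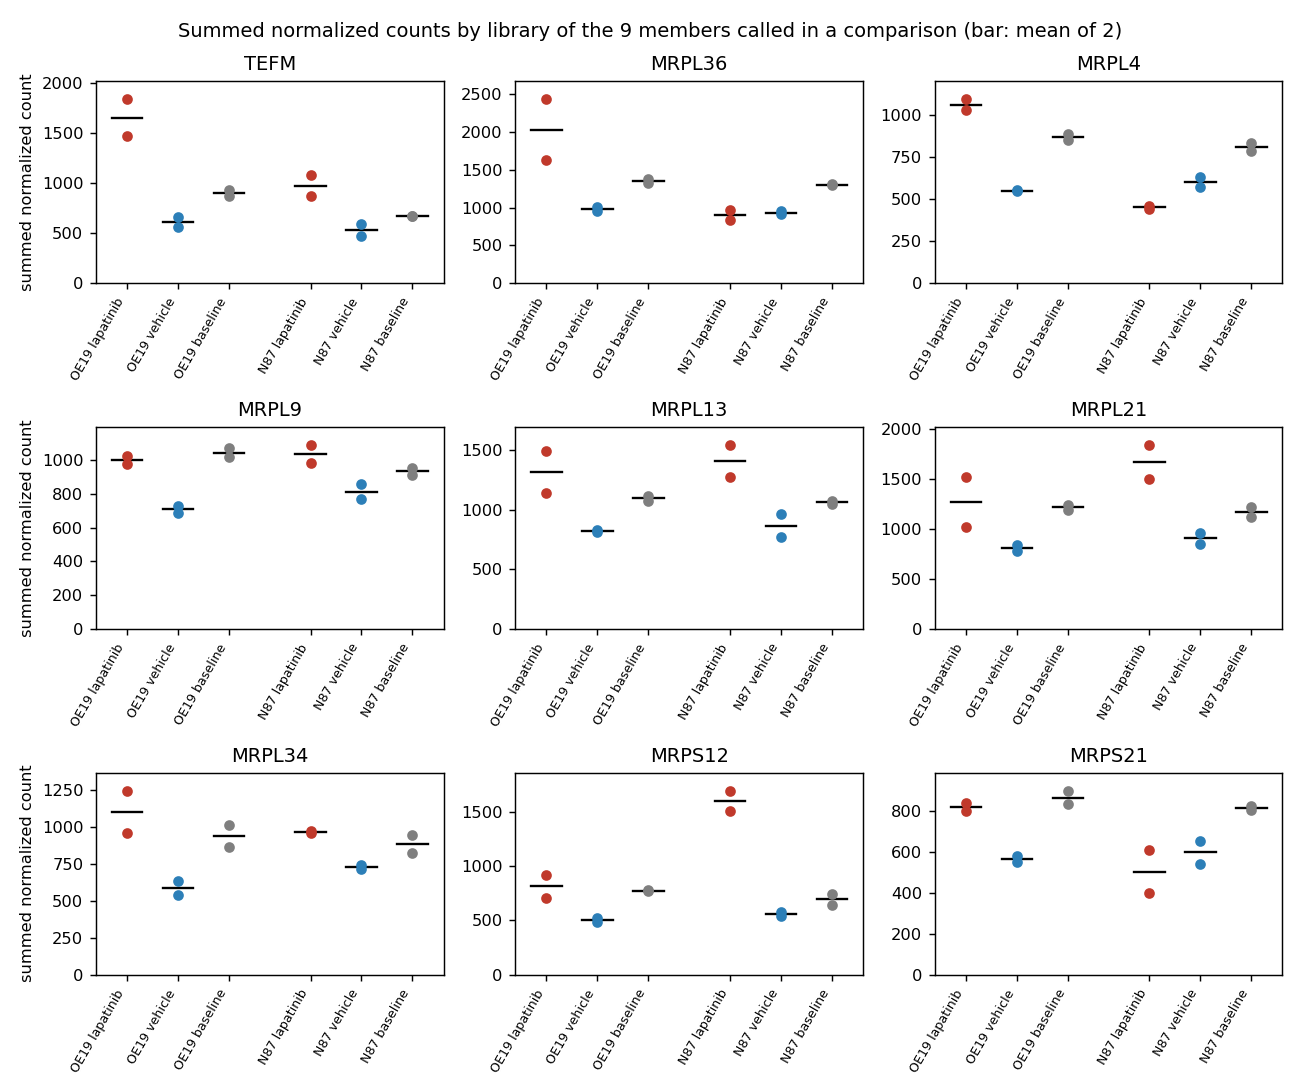
Summed normalized counts (y axis, from 0) of the 9 members that passed the gene test in any comparison, 1 point per library and a bar at the mean of the 2 libraries, for lapatinib, vehicle and baseline in OE19 and N87. In each panel the OE19 vehicle points lie below the OE19 baseline points, and the OE19 lapatinib points lie above the vehicle points. All but MRPL36 were called in comparisons that use the OE19 vehicle libraries, so this pattern follows in part from their choice.

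By role, the 47 large-subunit genes had a median over sgRNAs of -0.32 in OE19 and -0.22 in N87, and the 29 small-subunit genes -0.34 and -0.23. Large-subunit genes held 5 of the OE19 calls and the N87 call, and small-subunit genes held the other 2. Members at the ends of the ranking by median included ribosomal genes and POLRMT, described with the transcription genes. MRPS24, of the small subunit, had the lowest median in OE19, -0.90 ± 0.58, with 795.6 and 872.7 in OE19 vehicle libraries, against 967.0 and 973.3 in OE19 baseline libraries, and did not pass the gene test (adjusted p = 0.312). MRPL41, of the large subunit, had -0.62 ± 0.54 in N87 (adjusted p = 0.372). MRPL15 had the highest median in OE19, 0.11, and 8 members were above 0. Among members whose 2 replicates both had the sign of the median, the highest medians were those of MRPS17 at 0.09, MRPS22 at -0.03 and MRPS7 at -0.04 in OE19, and of MRPL2 at 0.15, MRPS15 at 0.11 and MRPL24 at -0.01 in N87, and none of these 6 passed the test in either direction.

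Among the transcription genes none passed in drug-free growth, with 1 of 4 at an unadjusted p under 0.05 in each line. POLRMT had the lowest median of any member in N87, -0.76 ± 0.59 (adjusted p = 0.0772), with 319.0 and 254.5 in N87 vehicle libraries, against 419.6 and 427.8 in N87 baseline libraries. In OE19 it had 362.0 and 364.3 in vehicle libraries, against 475.2 and 534.4 in baseline libraries (median -0.51 ± 0.44, adjusted p = 0.838). Summed counts did not overlap in either line. TFAM had medians of -0.08 ± 0.54 in OE19 and -0.15 ± 0.18 in N87, and TFB2M of -0.18 ± 0.39 in OE19 and -0.41 ± 0.21 in N87. TEFM, described in detail below, had -0.27 ± 0.46 in OE19 and -0.31 ± 0.20 in N87, with all 6 sgRNAs lower in each line and no call.

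POLG was just outside the threshold in OE19. It had 947.4 and 1155 in OE19 vehicle libraries, against 1589 and 1586 in OE19 baseline libraries, with a median of -0.59 ± 0.34 (adjusted p = 0.0526) and 2 of 6 sgRNAs called lower. In N87 it had 1315 and 1076 in vehicle libraries, against 1414 and 1470 in baseline libraries (median -0.39 ± 0.24, adjusted p = 0.106). The vehicle sums lay below the baseline sums in both lines.

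Of the translation factors, TUFM had medians of -0.47 ± 0.40 in OE19 and -0.34 ± 0.27 in N87, TSFM of -0.40 ± 0.47 in OE19 and -0.20 ± 0.25 in N87, and GFM1 of -0.17 ± 0.19 in OE19 and -0.33 ± 0.14 in N87, with none past the test. MTIF2 stayed near 0, at 0.01 ± 0.26 in OE19 and 0.00 ± 0.18 in N87. Its summed counts were 1213 and 1218 in OE19 vehicle libraries, against 1259 and 1183 in OE19 baseline libraries, and these overlapped.

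Other genes of mitochondrial gene expression, 114 in 7 lists, were set beside the members. Aminoacyl-tRNA synthetases of mitochondria, which charge the tRNAs, had the lowest median over sgRNAs, -0.61 in OE19 and -0.31 in N87. In OE19 6 of 17 were depleted, and the lowest adjusted p was that of MARS2, the methionine enzyme (median -1.04 ± 0.53, adjusted p = 0.00297), ahead of AARS2 and YARS2, the alanine and tyrosine enzymes, at -0.84 ± 0.57 and -0.77 ± 0.50. In N87 3 of 17 were depleted, led by IARS2, the isoleucine enzyme (-1.06 ± 0.41, adjusted p = 0.000322), which was also depleted in OE19 (-0.99 ± 0.81, adjusted p = 0.00805). SARS2, the serine enzyme, was the other gene called in both lines, at -0.79 ± 0.34 in OE19 and -0.60 ± 0.18 in N87, and NARS2, the asparagine enzyme, was called in N87 (-0.34 ± 0.31).

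The 7 mitochondrial ribosomal proteins listed under other symbols had medians over sgRNAs of -0.36 in OE19 and -0.24 in N87, close to those of the members, and DAP3, a small-subunit protein, was depleted in OE19 (-0.59 ± 0.49, adjusted p = 0.0205). The 28 ribosome assembly factors had -0.22 in OE19 and -0.12 in N87 with no call, against 6 and 5 at an unadjusted p under 0.05. The 13 genes of mitochondrial DNA maintenance lay near 0, at 0.02 in OE19 and -0.02 in N87. In N87 TOP1MT, a mitochondrial topoisomerase, was depleted (-0.50 ± 0.42, adjusted p = 0.0104). HSD17B10, a subunit of the enzyme that trims the 5′ end of mitochondrial tRNAs, was the 1 call among 19 genes of RNA processing and stability (OE19, -0.79 ± 0.74, adjusted p = 0.0208), TRMT5, a tRNA methyltransferase, was the 1 call among 16 tRNA modification genes (N87, -0.72 ± 0.47, adjusted p = 0.0376), and none of 15 other translation factors was called, against 3 in OE19 and 1 in N87 at an unadjusted p under 0.05.

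Outside mitochondrial gene expression, the 87 cytosolic ribosomal proteins had medians over sgRNAs of -0.41 in OE19, with 15 depleted, and -0.42 in N87, with 24 depleted. RPL3, a core protein of the large cytosolic subunit, was among both, at -0.87 ± 0.14 in OE19 and -0.87 ± 0.33 in N87. The 77 subunits of oxidative phosphorylation, which include partners of the proteins that the mitochondrial ribosome makes, had -0.13 in OE19 and -0.17 in N87, with 5 depleted in each line. They included NDUFB10, of complex I, in OE19 (-1.11 ± 0.63, adjusted p = 0.00295), NDUFV2, of complex I, in N87 (-0.63 ± 0.48, adjusted p = 0.00123) and ATP5F1, of the ATP synthase, in both. Olfactory receptors, which are silent in most tissues, had 0.05 in both lines, with 2 of 376 depleted in OE19 and 3 in N87, all of the OR4F family of near-identical copies.

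The difference between lines in drug-free growth was tested as an interaction. No member gene passed in either direction (edgeR with rank aggregation over all 8 libraries), against 3 enriched and 16 depleted in OE19 relative to N87 at an unadjusted p under 0.05, which is 3.53% against 5.2% of all genes and 18.8% against 5.39%, and DESeq2 in place of edgeR also called none. The median difference over member sgRNAs, OE19 minus N87, was -0.09, against -0.0042 over all sgRNAs and 0.10 over control guides. SDHC, a complex II subunit, was the 1 gene of the other lists that passed (-0.71 ± 0.36, adjusted p = 0.0354). The most negative gene difference was that of MRPS24, a small-subunit protein, at -0.58, and the most positive that of MRPL43 at 0.38.

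Lapatinib was then compared with vehicle in OE19 cells, to ask which knockouts were more or less frequent among cells that lived through the drug. Member sgRNAs were higher relative to all sgRNAs, with a median of 0.30 over 498 tested sgRNAs and quartiles of -0.08 and 0.76, against -0.02 over all sgRNAs and -0.14 over control guides. Scaled by total counts alone the median of all sgRNAs was -0.46 and that of the members -0.15, so the sign of the members turned while their distance from all sgRNAs was 0.31, against 0.32 with the TMM factors used throughout. Changes under lapatinib are therefore read relative to all sgRNAs. Summed counts were higher in both lapatinib libraries than in both vehicle libraries for 64 of 85 members, or 75.3%, against 36.3% of all genes tested. In the gene test 1 member was enriched, TEFM, or 1.18% of 85, against 0.0957% of 20890 genes, which is 20 genes. An earlier account of these data already showed TEFM as enriched in OE19 with lapatinib, so this share rests on 1 gene known beforehand. At an unadjusted p under 0.05, 15 members were enriched, or 17.6%, against 5.47% of all genes.

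TEFM, the elongation factor of the mitochondrial RNA polymerase, rose to 1839 and 1473 summed normalized counts in OE19 lapatinib libraries, against 560.4 and 661.6 in OE19 vehicle libraries. OE19 baseline libraries held 932.2 and 874.5, so lapatinib lay above both other conditions with no overlap. The median log2 fold change over 6 sgRNAs was 1.42 ± 0.84 (adjusted p = 0.0175), with 5 sgRNAs higher and 4 called singly, and the sums differed by 2.71 times.

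The 4 called sgRNAs came from both sub-libraries. The sgRNA numbered 4 had 666.5 and 425.2 normalized counts under lapatinib, against 100.3 and 140.7 under vehicle and 286.4 and 294.0 at baseline (lapatinib against vehicle 2.16, edgeR adjusted p = 0.0054). The sgRNA numbered 5 had 387.5 and 246.7 under lapatinib, against 67.83 and 106.7 under vehicle (1.84, adjusted p = 0.0111). The sgRNA numbered 2 had 338.4 and 178.4 under lapatinib, against 89.21 and 79.44 under vehicle (1.57, adjusted p = 0.0280).

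The sgRNA numbered 6 had 268.7 and 339.8 under lapatinib, against 105.4 and 148.7 under vehicle (1.26, adjusted p = 0.0363). In all 4, which were picked by their calls on these same libraries, the lapatinib counts lay above the vehicle counts in both libraries. The sgRNA numbered 1 had 93.0 and 194.0 under lapatinib, against 105.4 and 102.1 under vehicle, and overlapped. The sgRNA numbered 3 had 85.25 and 88.45 under lapatinib, against 92.16 and 83.98 under vehicle, and overlapped too (-0.04, adjusted p = 0.975).

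**Figure D4:**
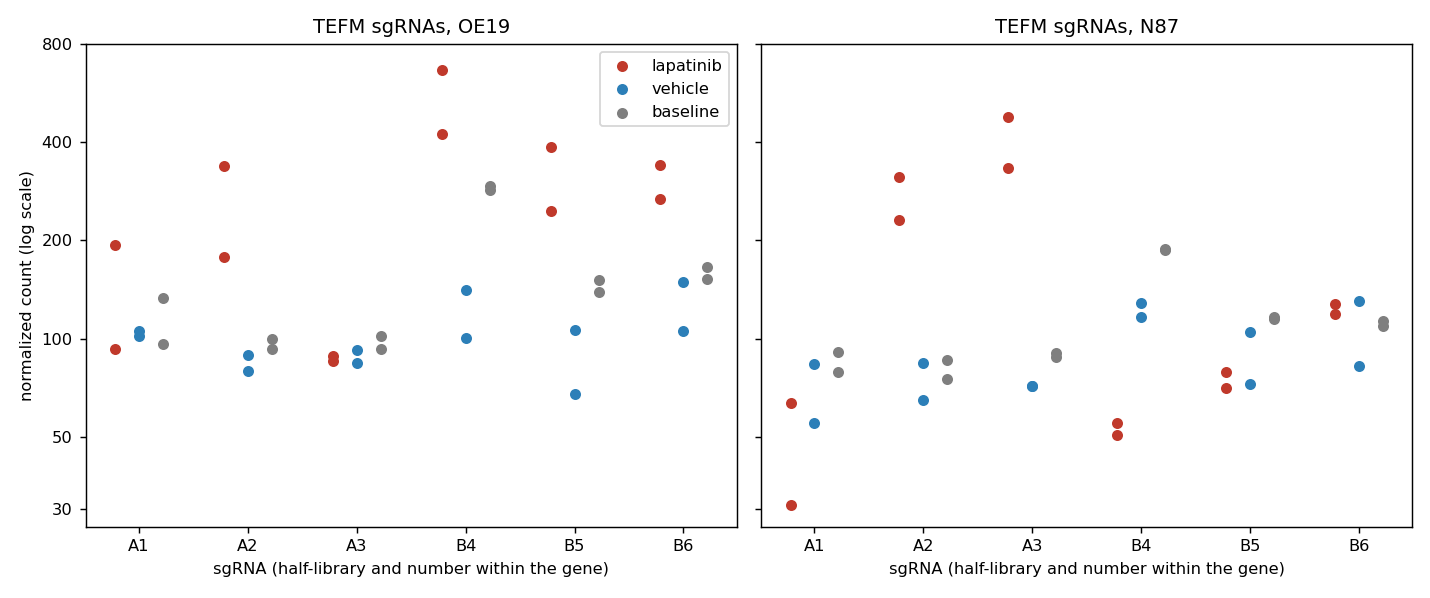
Normalized counts (log scale) of the 6 TEFM sgRNAs in each library, with lapatinib, vehicle and baseline side by side for OE19 and N87; A and B name the sub-library and the number is that of the sgRNA within the gene. In OE19 the lapatinib points of sgRNAs 2, 4, 5 and 6 lie above both vehicle points, and in N87 those of sgRNAs 2 and 3 do.

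Against baseline, TEFM in OE19 lapatinib libraries had a median of 0.92 ± 0.56 and did not pass the test (adjusted p = 0.130). The vehicle libraries are shared by the lapatinib comparison and the drug-free comparison, so a low vehicle count raises 1 and lowers the other. The enrichment over vehicle was not called without lapatinib replicate 1 (adjusted p = 0.422), without lapatinib replicate 2 (0.386) or without vehicle replicate 1 (0.0614), and was called without vehicle replicate 2 (0.00856).

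TEFM lies at chr17:29224354-29233256 on the minus strand (GRCh37, GENCODE annotation). Other sgRNAs targeting genes within 1 Mb of it had a median of 0.48 in OE19 lapatinib against vehicle, the second highest such value around any member, where the median over members was 0.02. NF1, a negative regulator of Ras on the far side of RNF135, had a median of 2.97 ± 1.77 and was enriched (adjusted p = 0.00154). CRLF3 had 0.88 ± 0.40, ATAD5, the adjacent gene on 1 side, 0.59 ± 0.45, and ADAP2, the adjacent gene on the other, 0.25 ± 0.32. RNF135 had 0.61 ± 0.49, and OMG and EVI2B, which lie within the span of NF1, had 0.95 ± 0.43 and 0.76 ± 0.72. None of these 6 passed the test against vehicle, and CPD, within 500 kb, was at -0.12. Against baseline OMG passed too (1.17 ± 0.39, adjusted p = 1.33e-05), as NF1 did (3.26 ± 1.87, adjusted p = 0.000589), and CRLF3 had 0.93 ± 0.60 (adjusted p = 0.130), beside 0.92 for TEFM. Around TEFM the same sgRNAs had a median of 0.45 in OE19 lapatinib against baseline and -0.04 in N87 lapatinib against vehicle. Positions of the sgRNAs were not given in the sources used here, and the part of the neighbourhood in the TEFM result was not tested.

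**Figure D5:**
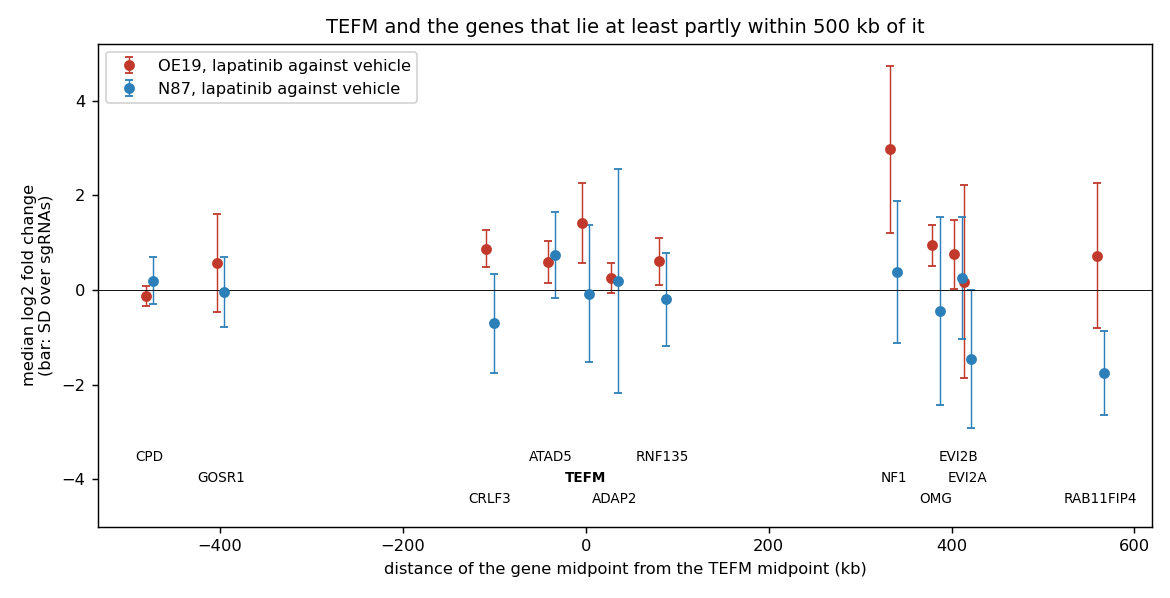
Median log2 fold change of lapatinib against vehicle (y axis; bars are the SD over sgRNAs) for TEFM and the genes at least partly within 500 kb of it, by the distance of their midpoints from that of TEFM, in OE19 and N87. In OE19 10 of 11 neighbours lie above 0, NF1 highest, while N87 values scatter on both sides of 0.

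Apart from TEFM, the highest OE19 medians were those of 2 large-subunit genes. MRPL4 had 1031 and 1092 in OE19 lapatinib libraries, against 552.2 and 547.0 in OE19 vehicle libraries, with all 6 sgRNAs higher and a median of 1.15 ± 0.51 (adjusted p = 0.807). MRPL53 had 1139 and 1009 in lapatinib libraries, against 499.9 and 609.4 in vehicle libraries (1.11 ± 0.57, adjusted p = 0.578). In neither gene did the 2 conditions overlap, and neither passed the test. For MRPL4 the lapatinib value against baseline was 0.27 ± 0.27, and for MRPL53 it was 0.12 ± 0.48.

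The lowest medians were those of 3 small-subunit genes, MRPS22 at -0.40 ± 0.58, MRPS27 at -0.38 ± 0.72 and MRPS17 at -0.30, whose sgRNAs ran from -0.49 to 2.34, and none of these passed. Among the other factors, POLRMT had 545.1 and 530.7 under lapatinib, against 362.0 and 364.3 under vehicle (0.96 ± 0.78, adjusted p = 0.898), and POLG had 1436 and 1468 under lapatinib, against 947.4 and 1155 under vehicle (0.56 ± 0.27, adjusted p = 1). TUFM had 0.69 ± 0.51, MTIF2 0.45 ± 0.71, TSFM 0.28 ± 0.43, TFB2M 0.02 ± 0.24, GFM1 -0.01 ± 0.42 and TFAM -0.02 ± 0.55, with no call. Large-subunit genes had a median over sgRNAs of 0.34 and small-subunit genes of 0.24. All tested sgRNAs were higher for 17 members, or 20% against 3.37% of all genes, among them POLG, MRPL4, MRPL21, MRPL34, MRPL36 and MRPS21.

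In single sgRNAs 28 of 498 were higher under lapatinib in OE19, or 5.62% against 2.33% of all sgRNAs, and none were lower, against 0.0795% of all sgRNAs, 10 at an unadjusted p under 0.05 and none by DESeq2. Of 1994 control guides 44 were higher. The 28 fell in 22 genes. TEFM held 4, MRPL34, MRPL36 and MRPL38 held 2 each, and 18 genes held 1. With edgeR factors from total counts alone 7 were called higher, and with factors from the control guides 45 were. Without lapatinib replicate 1 and 2 the number was 51 and 80, and without vehicle replicate 1 and 2 it was 0 each time, when 9 and 47 of all sgRNAs were called.

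A few single sgRNAs lay far above the others of their gene. An sgRNA against MRPL35, a large-subunit protein, had 21810 and 6343 normalized counts in OE19 lapatinib libraries, against 85.53 and 131.6 in OE19 vehicle libraries (6.99, edgeR adjusted p = 0.0354), while the other 5 sgRNAs of MRPL35 lay between -0.57 and 0.77. An sgRNA against MRPL40 had 1935 and 687.4 under lapatinib, against 60.46 and 52.21 under vehicle (4.50, adjusted p = 0.00337), and the other 4 tested lay between -0.49 and -0.24. Neither gene as a whole passed the test. The MRPL34 sgRNA that was low in vehicle libraries had 129.2 and 99.31 under lapatinib, against 6.636 and 19.29 under vehicle (3.17, adjusted p = 0.0137), and another sgRNA of MRPL34 was called too.

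Medians of the other lists differed in sign. The 7 mitochondrial ribosomal proteins under other symbols had a median over sgRNAs of 0.38, with summed counts higher without overlap for all 7, oxidative phosphorylation subunits had 0.23, mitochondrial aminoacyl-tRNA synthetases 0.20 and cytosolic ribosomal proteins 0.15, against -0.07 for olfactory receptors. Ribosome assembly factors had 0.18 and tRNA modification genes 0.16, while mitochondrial DNA maintenance had 0.02, other translation factors 0.0086, and RNA processing and stability -0.05, with 14 of 19 gene medians negative. No gene of these lists was enriched in the gene test, against 1 of 7 ribosomal proteins under other symbols, 16 of 77 oxidative phosphorylation subunits, 3 of 17 synthetases, 8 of 87 cytosolic ribosomal proteins, 18 of 376 olfactory receptors, 5 of 28 assembly factors, 1 of 16 tRNA modification genes, 0 of 13 DNA maintenance genes, 1 of 15 translation factors and 1 of 19 RNA processing genes at an unadjusted p under 0.05.

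Set against baseline in place of vehicle, OE19 lapatinib libraries had member sgRNAs close to all sgRNAs. The median over 499 member sgRNAs was 0.0053, against -0.01 over all sgRNAs and 0.06 over control guides, and 42 of 85 gene medians were negative, or 49.4% against 52.7% of all genes. No member gene was called, against 3 enriched and 2 depleted at an unadjusted p under 0.05, or 3.53% against 5.35% of all genes and 2.35% against 5.69%. No member sgRNA was called by edgeR, against 44 higher and 37 lower at an unadjusted p under 0.05, and 18 higher and 2 lower by DESeq2. These counts, and those with a library left out, have no share over all sgRNAs beside them. They are not read as particular to the members. Without lapatinib replicate 1 and 2 edgeR called 55 and 82 higher and 29 and 56 lower. For the 7 genes depleted over drug-free growth in OE19, lapatinib against baseline gave medians of 0.27 for MRPL4, 0.23 for MRPL34, 0.03 for MRPS12, -0.11 for MRPL9, -0.14 for MRPL13, -0.19 for MRPS21 and -0.35 for MRPL21. Over drug-free growth the medians of these genes were -0.85 to -0.50, and lapatinib against vehicle, which shares the vehicle libraries, gave 0.46 to 1.15 for them.

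In N87 cells lapatinib moved sgRNAs widely in both directions, in the members as in the whole table. Of 497 member sgRNAs 143 were higher, or 28.8% against 31.2% of all sgRNAs, and 143 were lower, or 28.8% against 29.9%, and of 1999 control guides 731 were higher and 314 lower. The split of member sgRNAs was 82 higher and 214 lower with edgeR factors from total counts alone, and 109 and 174 with factors from the control guides. Without vehicle replicate 1 and 2 the members lower were 58 and 64. The median over member sgRNAs was -0.16, against -0.07 over all sgRNAs and 0.25 over control guides. No member gene passed the test in either direction with edgeR or with DESeq2, and at an unadjusted p under 0.05 2 were enriched, or 2.35% against 5.08% of all genes, and 3 depleted, or 3.53% against 5.18%. Summed counts were higher without overlap for 69.4% of members and 70.5% of all genes. The interquartile range of member sgRNAs on the log2 scale was 3.10 and 2.34 in N87 lapatinib libraries, against 1.34 and 1.42 in N87 vehicle libraries.

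The gene medians of members ran from -1.91 to 1.58. At the upper end MRPS15, a small-subunit protein, had 4107 and 3014 in N87 lapatinib libraries, against 1107 and 1129 in N87 vehicle libraries. All 6 of its sgRNAs were called higher singly and its median was 1.58 ± 0.49, but the gene test, which counts only ranks below 0.05 among all sgRNAs, did not call it (adjusted p = 1). In OE19 MRPS15 had 1338 and 1072 in lapatinib libraries, against 990.9 and 1109 in vehicle libraries, which overlapped.

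At the lower end MRPL23, a large-subunit protein, had 148.4 and 330.3 in N87 lapatinib libraries, against 810.9 and 737.5 in N87 vehicle libraries. All 6 of its sgRNAs were called lower, with a median of -1.91 ± 0.58 (gene test adjusted p = 0.930). MRPL27 at -1.83 ± 2.03 and MRPL37 at -1.83 ± 2.02 had medians nearly as low, with sgRNAs on both sides of 0. MRPL17 at 1.02 ± 1.06 and MRPL33 at 0.90 ± 1.84 followed MRPS15 at the upper end.

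Most N87 members were split between their sgRNAs. POLG had an sgRNA at 2301 and 1733 normalized counts under lapatinib, against 138.2 and 112.6 under vehicle (3.95, edgeR adjusted p = 2.92e-08), while the other 5 lay between -2.13 and 0.65. The highest sgRNA of MRPS12 had 1360 and 1162, against 135.9 and 127.6 under vehicle (3.20), and that of MRPL54 had 2322 and 1809, against 268.8 and 189.4 (3.11). The other sgRNAs of MRPS12 lay between -1.71 and 0.80, and those of MRPL54 between -1.75 and 0.75.

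Medians of the remaining factors in N87 under lapatinib were -1.64 ± 1.65 for TFAM, -0.96 ± 1.14 for MTIF2, -0.49 ± 0.94 for POLRMT, -0.35 ± 0.79 for GFM1, -0.17 ± 2.04 for POLG, 0.36 ± 1.54 for TSFM, 0.41 ± 1.02 for TUFM and 0.56 ± 0.91 for TFB2M. None passed the test. TEFM in N87 had 1079 and 873.2 under lapatinib, against 591.6 and 475.6 under vehicle, with sgRNAs 2 and 3 called higher, sgRNA 4 called lower and a median of -0.07 ± 1.45 (adjusted p = 1). The sgRNA numbered 3, which was not called in OE19, had 477.5 and 333.9 under lapatinib, against 71.82 and 71.75 under vehicle.

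Against baseline, N87 lapatinib libraries had a median over 500 member sgRNAs of -0.41, against -0.08 over all sgRNAs and 0.35 over control guides. Of these sgRNAs 132 were higher, or 26.4% against 33.7% of all sgRNAs, and 211 were lower, or 42.2% against 33.6%. The split was 81 higher and 280 lower with total counts, and 93 and 263 with control guide factors. Without baseline replicate 1 and 2 the members lower were 107 and 111. No member gene was called by edgeR or DESeq2, and 2 were enriched and 8 depleted at an unadjusted p under 0.05, which is 2.35% against 5.13% of all genes and 9.41% against 5.23%.

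The lapatinib effect was compared between lines as an interaction over 8 libraries. OE19 minus N87, the median over 497 member sgRNAs was 0.56, against 0.13 over all sgRNAs and -0.32 over control guides. Member sgRNAs with a more positive effect in OE19 numbered 146, or 29.4% against 20.7% of all sgRNAs, and 72 had a more negative effect, or 14.5% against 20.5%. With control guide factors the split was 196 and 49. The first number was 93 without N87 lapatinib replicate 1, 82 and 95 without N87 vehicle replicate 1 and 2, and 76 without OE19 vehicle replicate 1. All sgRNAs had a positive difference for 6 members, MRPL4, MRPL23, MRPS21, MRPS24, MTIF2 and POLRMT, or 7.06% against 3.73% of all genes. No member gene passed the gene test by edgeR or DESeq2, and at an unadjusted p under 0.05 9 were enriched in OE19 relative to N87, or 10.6% against 5.19% of all genes, and 1 depleted, or 1.18% against 5.14%. For TEFM the difference was 1.11 ± 2.03 (adjusted p = 0.920). The gene test thus did not show its call in OE19 alone to be a difference between the lines. With gene sums, a setting that called many members here, TEFM was called too (log2 difference 0.95, edgeR adjusted p = 0.0069).

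Some members outside the TEFM region also lay beside genes with medians away from 0. In OE19 lapatinib against vehicle, the sgRNAs of other genes within 1 Mb of MRPL34 (chr19:17403418-17417652) had a median of 0.48, and MRPL34 itself had 0.90 ± 1.11. In OE19 drug-free growth, 4 members on chromosome 6, MRPL2, MRPL14, MRPS10 and MRPS18A, had neighbours with medians of -0.41 to -0.35, the lowest around any member, where the median over members was -0.02. In N87 the lowest neighbourhood in drug-free growth was that of MRPL45 (chr17:36452989-36479100) at -0.25. The median around the other called genes in OE19 drug-free growth was -0.16 for MRPS21, -0.13 for MRPL9, -0.12 for MRPL21, -0.06 for MRPL34, -0.02 for MRPS12, 0.02 for MRPL4 and 0.05 for MRPL13. In the annotation 40 members overlap another protein-coding gene, such as POLG with FANCI, MRPL53 with CCDC142, MRPL34 with ABHD8 and MRPL9 with OAZ3. The part of neighbours and overlaps in the results was not tested.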

How the data were processed

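The deposited table held raw counts per sgRNA, which the authors made by aligning trimmed reads to the library sequences with Bowtie (Bowtie2 2.3.2 in the submitters' processing notes) and merging the libraries. Sequences of the sgRNAs were not used here. Of 123411 entries 2000 were control guides. edgeR 4.0.16 (TMM factors, quasi-likelihood test, no replicate block) was fitted per comparison to its 4 libraries, keeping sgRNAs whose counts summed to 40 or more, and per interaction to 8 libraries with a sum of 80 or more. Gene p-values came from robust rank aggregation over ranks below 0.05 for genes with at least 2 tested sgRNAs, in each direction, with Benjamini-Hochberg adjustment at 0.05. A run on simulated counts required only that the median fold of changed genes be recovered. There all sgRNAs of a changed gene had the same fold, unlike the spread over sgRNAs seen here. Levels are counts divided by median-of-ratios size factors and summed over a gene's sgRNAs. Fold changes of single replicates, used to name members, had a pseudocount of 1. Alternatives were DESeq2 1.42.0, other scaling factors, no filter, gene sums, ranks below 0.25, a replicate block and leaving out each library. The sgRNA p-values rest on the spread between separate infections, with dispersion estimated across all sgRNAs. Gene p-values measure how a gene's sgRNAs rank among all sgRNAs, and do not measure that spread directly. Counts of member sgRNAs at an unadjusted p are given without the share over all sgRNAs.

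Named were TEFM, the other 8 factors, each member past the gene test, the 3 highest and 3 lowest medians in the main comparisons among members with at least 4 tested sgRNAs and both replicates of 1 sign, called genes of the other lists (at most 5 a list and direction), the 3 highest sgRNAs under lapatinib in each line, and, chosen after their values were seen, the neighbours of TEFM and MRPL34, MRPL45, MRPS18A and other members named for their position or as a single exception. The members and lists were chosen with earlier results of these data known.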

Additional observations from a re-analysis of the deposited data

Results flagged for a closer look

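The lapatinib effect differed between OE19 and N87 for single member sgRNAs by the interaction test (edgeR, adjusted p under 0.05): 146 of 497 had a more positive effect in OE19, or 29.4% against 20.7% of all sgRNAs, and 72 had a more negative effect, or 14.5% against 20.5%. The doses differed between lines, and no member gene passed the gene test of this difference.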

How the results depend on the processing

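The shift of member sgRNAs against all sgRNAs kept its direction under every setting run in drug-free growth and in OE19 lapatinib against vehicle. Total counts moved the median of all sgRNAs under lapatinib to -0.46 in OE19 and -0.59 in N87, and control guide factors moved it to 0.10 in OE19 and -0.34 in N87. Counts of calls changed. The counts in this paragraph and the next have no share over all genes or sgRNAs beside them. They do not show whether a change was one of the members or of the whole table. For N87 drug-free depletion, 1 member gene became 2 with control guide factors, 2 with no filter, 4 with gene sums, 18 with ranks below 0.25 and 3 with a replicate block. For OE19, 7 became 35 with gene sums and 14 with ranks below 0.25. Member sgRNAs lower in N87 were 2 with DESeq2, 0 with RLE factors, 4 with control guide factors and 40 with the block. In OE19 29 became 85 with control guide factors and 93 with the block. Higher under lapatinib in OE19, 28 became 45 with control guide factors and 7 with total counts. In N87 lapatinib against vehicle total counts gave 82 higher and gene sums 23 enriched and 27 depleted genes. Against baseline total counts gave 81 higher and gene sums 15 and 46 genes. In N87 lapatinib libraries the main setting called 31.2% of all sgRNAs higher and 29.9% lower against vehicle, and 33.7% and 33.6% against baseline. In OE19 lapatinib against baseline DESeq2 gave 18 higher and 2 lower, and the block 19 and 3. Gene sums gave 34 and 8 members in the lapatinib interaction. Whether equal replicate numbers mark 1 infection was not given in the sources used here (same-numbered deviations correlated at 0.03 to 0.07 across sgRNAs, and at 0.24 for N87 vehicle and baseline), so the block is an alternative. Under it TEFM and MRPL36 stayed called, and of the 7 OE19 drug-free calls MRPL4 (adjusted p = 0.12) and MRPL9 (0.0504) were lost.

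Leaving out 1 library at a time, drug-free depleted members were 2 to 6 in OE19 and 2 to 5 in N87, and member sgRNAs lower were 8 to 221 in OE19 and 0 to 92 in N87, with 0 to 43 and 0 to 4 higher. In OE19 lapatinib against vehicle 0 to 80 were higher and 0 to 6 lower, with 0 to 1 gene enriched, and against baseline 0 to 82 and 0 to 56. In N87 lapatinib against vehicle 106 to 153 were higher and 58 to 182 lower, and against baseline 98 to 155 and 107 to 249. The interaction gave 76 to 175 and 52 to 79 for lapatinib, and 0 to 2 and 0 to 7 in drug-free growth.

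Gene sums gave a called change opposite in sign to the median over sgRNAs for POLG (adjusted p = 7.003e-06, higher) and TEFM (0.02447, higher) in N87 lapatinib against vehicle, for POLG (9.587e-05, higher), TFB2M (0.002466, lower) and TUFM (0.003239, lower) against baseline, and for POLG in the interaction (0.04921, lower). A median changed sign in 71 other cases, called in neither setting. Their adjusted p was 1 outside single-library omissions, except for TFAM (0.951 in OE19 under lapatinib, 0.9476 in the drug-free interaction) and MRPS17 (0.97 in OE19 drug-free), all with control guide factors. With a library left out it was 1 throughout, except for ranges up to 1 that began at 0.4891 for MTIF2 and 0.9606 for TFAM in OE19 lapatinib against vehicle, 0.9807 for POLG in N87, 0.8915 for GFM1 in OE19 against baseline, 0.7091 for MRPS22 and 0.956 for MRPS17 in OE19 drug-free growth, 0.9247 for MRPL2 in N87 drug-free growth, and 0.9948 for POLRMT, 0.959 for TFAM and 0.866 for TFB2M in the drug-free interaction. The causes were not tested. With 2 libraries a condition, single-sgRNA counts are limited by replicate spread.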
